A study of Rattus norvegicus with 4 samples.

Results

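The 9 genes described here encode components and targets of the interferon response and the cytokine interleukin 15: Usp18, Oasl, Irf1, Ifit2, Il15, Irf7, Irf9, Stat2 and Mx2. They were found as all probe sets annotated to exactly 1 gene symbol, that symbol being one of the 9, which gave 13 of 23707 probe sets and 9 of 12922 genes. They were chosen by their intensities in these same 4 arrays, PDGF-BB against vehicle. Every difference or call given for them is therefore a description and not a test. The samples were cultures of smooth muscle cells from rat aorta, and the study looked for early genes of their phenotypic modulation. Per the labels, the plating density was 10000 cells per cm2, and 24 h with 10% fetal bovine serum preceded 72 h in medium free of serum and insulin, in both groups. The PDGF-BB group (2 arrays) then received 30 ng/mL of platelet-derived growth factor BB, which drives proliferation of smooth muscle, for 3 h. The vehicle group (2 arrays) received the carrier, 10 mM acetic acid with 0.2% bovine serum albumin, over the same 3 h. Whether the 2 arrays of a group are of separate cultures is not in the labels, so errors and p-values measure array-to-array spread that may be technical.

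Interferons bind receptors at the cell surface and activate Janus kinases, which phosphorylate STAT proteins. Type I interferons bring Stat2 and Irf9 into a complex that binds the interferon-stimulated response element (ISRE). Interferon-gamma acts through the gamma-activated site (GAS) and switches on Irf1 among other genes. Among the targets, Ifit2 and Mx2 act against viruses, Oasl is a relative of the oligoadenylate synthases, and Usp18 removes the ubiquitin-like protein Isg15 and blocks the type I receptor. Interleukin 15 supports natural killer cells and memory T cells and is presented to them on its receptor alpha chain. Interferon-gamma is known to restrain the growth of vascular smooth muscle cells.

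The promoters shown come from RefSeq gene starts on the rat build GRCr8, and 6 of the 9 genes matched that table: Oasl, Irf1, Il15, Irf7, Irf9 and Stat2. They are shown to place the matches to ISRE core or GAS letters found before Irf1, Irf9 and Irf7 beside the promoter of Il15. Neither set of letters was found in the window searched for Il15, nor in those for Oasl and Stat2. Capitals mark matches, on either strand, to the ISRE core (GAAA, any 2 bases, GAAA), the GAS letters TTCNNNGAA or the AP-1 letters TGANTCA, searched in the 250 bases before each start. The first stretch is the 200 bases before the start of Irf1 on the plus strand, at chr10:38417735-38417934. The other lines are 30-base windows around a match, on the plus strand for Irf9 (chr15:33065726-33065755) and Il15 (chr19:42544518-42544547) and on the minus strand for Irf7 (chr1:205800073-205800102). All are written 5′ to 3′ in the direction of the gene.
Irf1: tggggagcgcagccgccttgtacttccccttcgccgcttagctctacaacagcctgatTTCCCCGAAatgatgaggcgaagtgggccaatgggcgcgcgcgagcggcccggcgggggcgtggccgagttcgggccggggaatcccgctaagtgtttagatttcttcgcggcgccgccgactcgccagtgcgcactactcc
Irf9: gaccacgtgatTTCTAGGAActgcacctcc
Irf7: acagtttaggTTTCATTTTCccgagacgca
Il15: agactgggaagaTGATTCAagaggggtcca

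The GAS letters stood at bases 142 to 134 before the start of Irf1 and at bases 99 to 91 before that of Irf9. Irf7 held the ISRE core at bases 69 to 60 before its start, and Il15 the AP-1 letters at bases 176 to 170. None of these 3 motifs was found in the 250 bases before the starts of Oasl and Stat2. The NF-kappaB letters searched (GGG, any 2 bases, TTTCC) were in none of the 6 promoters. Other forms of the NF-kappaB site were not searched, so this does not show that such a site is absent. Among 33469 promoters of the same length, 3.41% held the ISRE core, 7.67% the GAS letters, 6.34% the AP-1 letters and 1.3% the NF-kappaB letters. No matches overlapped in these windows. Only for Irf1 does the gene model begin at the start used. For Oasl, Irf7, Irf9, Stat2 and Il15 it reaches 217, 520, 414, 65 and 8546 bases further upstream, so these gene models also hold transcripts that begin upstream of the start used, beyond the searched window for Irf7, Irf9 and Il15. A match of letters is a description and shows no binding.

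The median intensity was 143.7 and 132.3 on the PDGF-BB arrays and 144.9 and 147.7 on the vehicle arrays. The table carries no detection calls, and the highest intensity of 27 Bacillus control probe sets, 80.3, served as a rough yardstick of background. PDGF-BB replicate 2 was below PDGF-BB replicate 1 in 67.7% of all probe sets and in 9 of the 13 probe sets of the 9 genes. All 9 measured smooth muscle markers were above the yardstick on every array, Acta2 at 10952.7 and 10801.8 with PDGF-BB and 11302.4 and 11945.5 with vehicle. Of these 9, 4 contractile genes fell with PDGF-BB, with log2 differences of -1.70 for Lmod1, -0.79 for Smtn, -0.70 for Myh11 and -0.49 for Mylk (limma adjusted p-values of 0.00246 to 0.0334). The other 5 did not pass, at -0.10 for Acta2, 0.02 for Tagln, 0.17 for Des, 0.26 for Cnn1 and 0.39 for Myocd. All 9 lymphocyte and natural killer markers, among them Cd3e, Cd4 and Cd8a, were at or below the yardstick on every array, with summed intensities of 160.7 to 165.9 with PDGF-BB and 151.0 to 181.4 with vehicle. Of 10 macrophage markers 6 were at or below it on every array, Ptprc at 8.82 and 15.7 with PDGF-BB and 23.4 and 17.3 with vehicle. Their sum, mostly Cd14, was 1711 to 1776 with PDGF-BB and 1925 to 1944 with vehicle. Of 7 endothelial markers 6 were at or below it on every array, and the sums, 295.5 to 299.6 with PDGF-BB and 367.4 to 372.3 with vehicle, were mostly Esam, which fell by 0.47 (limma adjusted p 0.0249). The sums of 6 fibroblast markers, mostly Col14a1, were 3808 to 3952 with PDGF-BB and 4527 to 4562 with vehicle. Col14a1 was the only 1 of these 6 above the yardstick on every array, 2 were at or below it on every array, and none passed limma's threshold. The relation of these markers to the differences below was not tested.

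The 9 genes did not move together. With PDGF-BB, Usp18 and Oasl were several-fold higher and above the background yardstick that they had not reached with vehicle, while Il15, Ifit2 and Irf1 were lower. Stat2 and Irf9, partners in the type I interferon complex, had smaller negative differences, Irf7 overlapped between the groups, and Mx2 stayed near background on all 4 arrays. In limma's fit over all probe sets, 6 of the 13 had an adjusted p under 0.05, the 1 each of Usp18 and Oasl higher and those of Irf1, Ifit2 (both) and Il15 lower. Of all probe sets 24.4% passed, 11.4% higher and 12.9% lower. This contrast chose the members, so nothing is read from their count or from which of them passed, here or below. The groups did not overlap for 11 of the 13, against 63.0% of all probe sets. The median difference of the 13 was -0.37 on the log2 scale, and that of all probe sets -0.01.

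**Figure D1:**
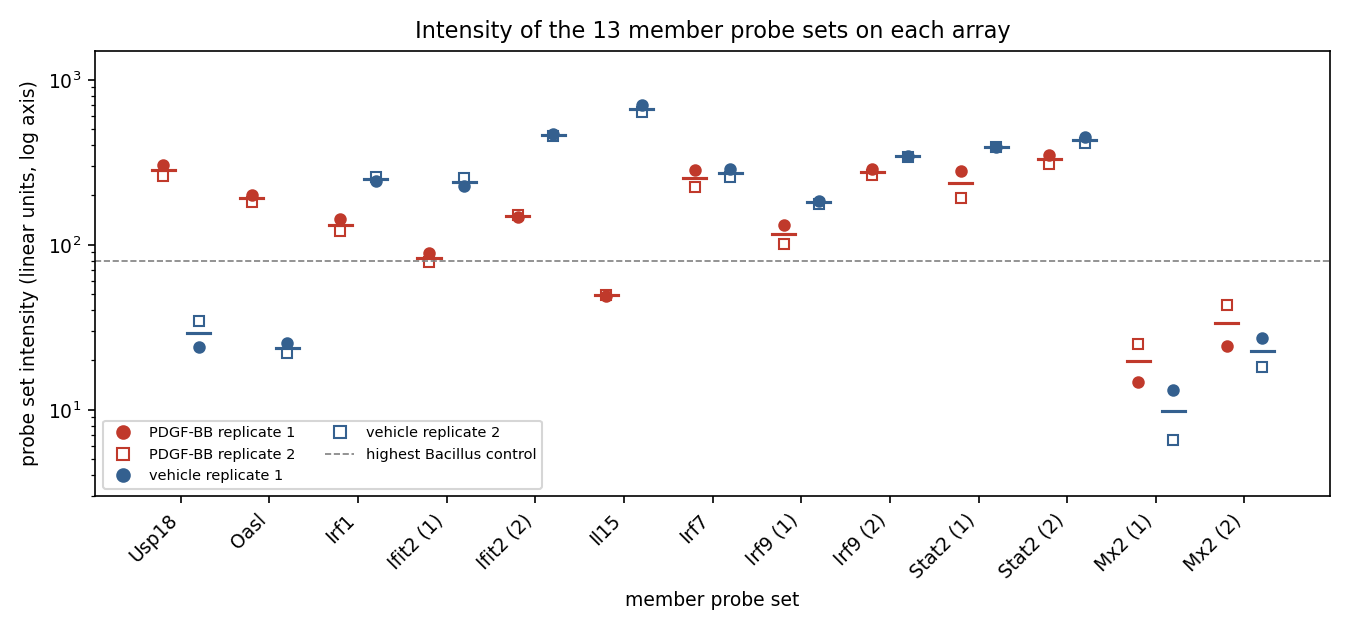
Probe set intensity (linear units, log axis) of the 13 probe sets on each array, PDGF-BB in red left of vehicle in blue, with replicate 1 filled, replicate 2 open, short lines at the means of 2 arrays, and the dashed line at the highest Bacillus control, 80.3. Usp18 and Oasl cross that line upwards with PDGF-BB, Il15 lies below it with PDGF-BB only, and both Mx2 probe sets lie below it on all arrays.

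Usp18, the Isg15-specific protease that also acts as a brake on type I interferon signalling, had intensities of 305.0 and 261.0 with PDGF-BB, against 24.0 and 34.4 with vehicle. Both PDGF-BB arrays were far above both vehicle arrays. The means were 283.0 ± 31.1 and 29.2 ± 7.34 in the same order (SD, n = 2 each), and the fitted difference was 2.73 (SE 0.16) on the log2(intensity + 16) scale. The vehicle values lie under the yardstick, so this difference is no exact size and the fold is given as a bound: Usp18 was at least 3.52-fold higher with PDGF-BB, taking vehicle at 80.3. In bulk RNA, a change in the share of expressing cells and a change in RNA per cell cannot be told apart, here or for the other genes.

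Oasl, an oligoadenylate synthase-like protein with ubiquitin-like domains, had intensities of 199.6 and 182.8 with PDGF-BB, against 25.4 and 22.1 with vehicle. As for Usp18, the groups lay far apart and the vehicle arrays were under the yardstick. The fitted log2 difference was 2.38 (SE 0.10), again no exact size, and Oasl was at least 2.38-fold higher with PDGF-BB, taking vehicle at 80.3. An offset of 64 in place of 16 before the logarithm gave 1.54, so the size on this scale depends on how values near background are treated. The promoter window of Oasl, searched above, held no match to the letters used for the 4 motifs.

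Il15, the cytokine gene, had intensities of 49.0 and 49.9 with PDGF-BB, against 699.4 and 637.5 with vehicle. The pairs were tight and did not overlap, and the PDGF-BB values were under the yardstick. The means were 49.4 ± 0.62 with PDGF-BB and 668.4 ± 43.7 with vehicle (SD, n = 2 each), and the fitted log2 difference was -3.39 (SE 0.10). Given as a bound, Il15 was at least 8.32-fold lower with PDGF-BB, taking PDGF-BB at 80.3. Its probe set is of the a type, which in Affymetrix naming covers alternative transcripts of the same gene, so the value does not separate the many Il15 transcripts.

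Ifit2, which binds viral RNA and limits its translation, was measured by 2 probe sets. One gave 148.0 and 151.1 with PDGF-BB, against 466.2 and 453.9 with vehicle, a log2 difference of -1.52 (SE 0.09). The other gave 88.9 and 78.5 with PDGF-BB, against 226.2 and 254.7 with vehicle, a log2 difference of -1.36 (SE 0.11). Both probe sets separated the groups, and their differences lay 0.16 apart. They ranked 243rd and 333rd from the lowest.

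Irf1, the transcription factor induced by interferon-gamma through its GAS element, had intensities of 143.7 and 120.8 with PDGF-BB, against 243.5 and 256.6 with vehicle. All 4 values were above the yardstick and the groups did not overlap. The means were 132.2 ± 16.2 with PDGF-BB and 250.1 ± 9.27 with vehicle (SD, n = 2 each), 1.89-fold lower with PDGF-BB, and the log2 difference was -0.85 (SE 0.12). That is 1191st from the lowest, so many probe sets had larger negative differences.

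Set side by side, the differences of Usp18 (2.73) and Oasl (2.38) were both positive and those of Irf1 (-0.85), Ifit2 (-1.52 and -1.36) and Il15 (-3.39) all negative. The 5 genes kept these signs under each of the 12 other settings run, but most of these settings could not have turned them. Where the groups do not overlap, another offset or leaving out 1 array keeps the sign. The filter on dim probe sets, the variance trend and the replicate block leave the difference as it is. Only the other scalings could have turned a sign. Usp18 ranged from 1.90 to 3.25, Oasl from 1.54 to 2.96 and Il15 from -3.73 to -2.69, in each case with the ends set by offsets of 64 and 1 before the logarithm. Irf1 ranged from -0.96 without PDGF-BB replicate 1 to -0.68 with an offset of 64.

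**Figure D2:**
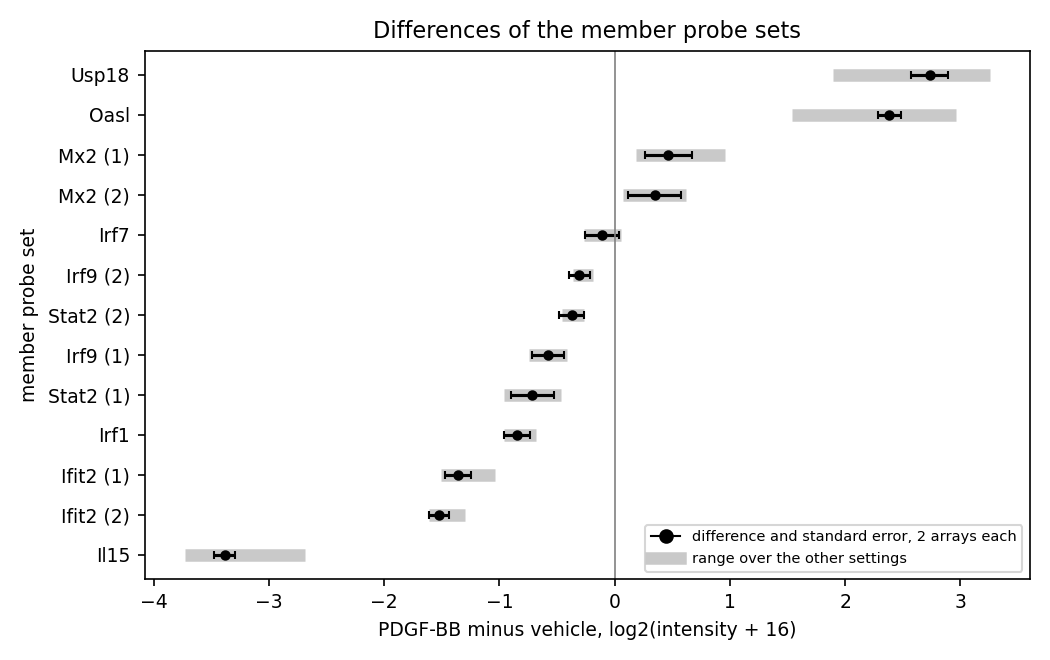
Log2 difference, PDGF-BB minus vehicle on the log2(intensity + 16) scale, of each of the 13 probe sets, as points with standard errors (2 arrays each), and in grey the range over the other settings. Usp18 and Oasl lie at 2.73 and 2.38, Il15 at -3.39, and the grey range crosses 0 for Irf7 alone.

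Stat2, the STAT of the type I interferon complex, had 2 probe sets with negative differences. One had intensities of 279.9 and 193.2 with PDGF-BB, against 390.7 and 394.0 with vehicle, and the other 352.1 and 310.6 with PDGF-BB, against 452.0 and 415.4 with vehicle. The groups did not overlap in either, but the first spread widely with PDGF-BB, at 236.6 ± 61.3, against 392.4 ± 2.33 with vehicle (SD, n = 2 each). The log2 differences were -0.71 (SE 0.19) and -0.37 (SE 0.11), and neither had an adjusted p under 0.05 by limma. The first was -0.96 when PDGF-BB replicate 1 was left out and -0.46 when PDGF-BB replicate 2 was.

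Irf9, the DNA-binding partner of that complex, gave a like picture with 2 probe sets. One had intensities of 132.0 and 101.5 with PDGF-BB, against 184.3 and 177.4 with vehicle, a log2 difference of -0.58 (SE 0.14). The other had 286.4 and 264.3 with PDGF-BB, against 347.2 and 341.0 with vehicle, a log2 difference of -0.31 (SE 0.09). The groups did not overlap in either probe set, and neither passed limma's threshold. For the first, leaving out PDGF-BB replicate 1 gave -0.74 and leaving out PDGF-BB replicate 2 gave -0.41.

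Irf7, the factor that amplifies type I interferon production and carries an ISRE core before its start, had intensities of 282.4 and 223.6 with PDGF-BB, against 288.2 and 257.0 with vehicle. The groups overlapped. The log2 difference was -0.11 (SE 0.15), and its sign turned with cyclic loess normalization (0.02) and without PDGF-BB replicate 2 (0.05).

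Mx2, a dynamin-like antiviral GTPase, was under the yardstick on every array in both of its probe sets. One had intensities of 14.7 and 25.0 with PDGF-BB, against 13.2 and 6.59 with vehicle, and the other 24.3 and 43.1 with PDGF-BB, against 27.1 and 18.2 with vehicle. At these intensities no fold is given.

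The profiles most like those of the 5 genes with the clearest separation were sought among genes outside the 9, by the Euclidean distance over the 4 arrays between log2 values less the vehicle mean. For Usp18 these were Nptx1 (distance 0.12) and Slc25a37 (0.16), for Oasl Itga5 (0.06) and Slc35e4 (0.07), and for Irf1 Smarca2 (0.02) and Helb (0.03). Those nearest to the brighter Ifit2 probe set were Ypel3 (0.04) and Gprc5c (0.04), and those nearest to Il15 were Otub2 (0.21) and Cavin2 (0.24). None of these 10 genes is in the interferon lists used below. Those lists hold only 131 of the 12922 genes, so nothing is read from this. The distances for Usp18, Oasl and Il15 also rest on values under the yardstick.

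The other genes of the pathway came from 7 lists, of which 131 genes were measured. At limma's threshold 14 rose, 11 fell and 106 did not pass. The split depended on the scaling: 23 were called higher and 11 lower with array medians subtracted, and 23 and 12 with cyclic loess normalization. Quantile normalization gave 20 higher and 17 lower. With the scaling as deposited, the 14 and 11 called genes are 19.1% of the 131, against 27.6% of all 12922 genes (12.4% higher and 15.2% lower). The median log2 difference was -0.02 over the 131 genes and -0.03 over all genes. The lists were drawn up with earlier results of these data known, so their counts are no independent support for the values of the 9 genes. Each gene stands by its probe set with the highest mean log2 value.

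**Figure D3:**
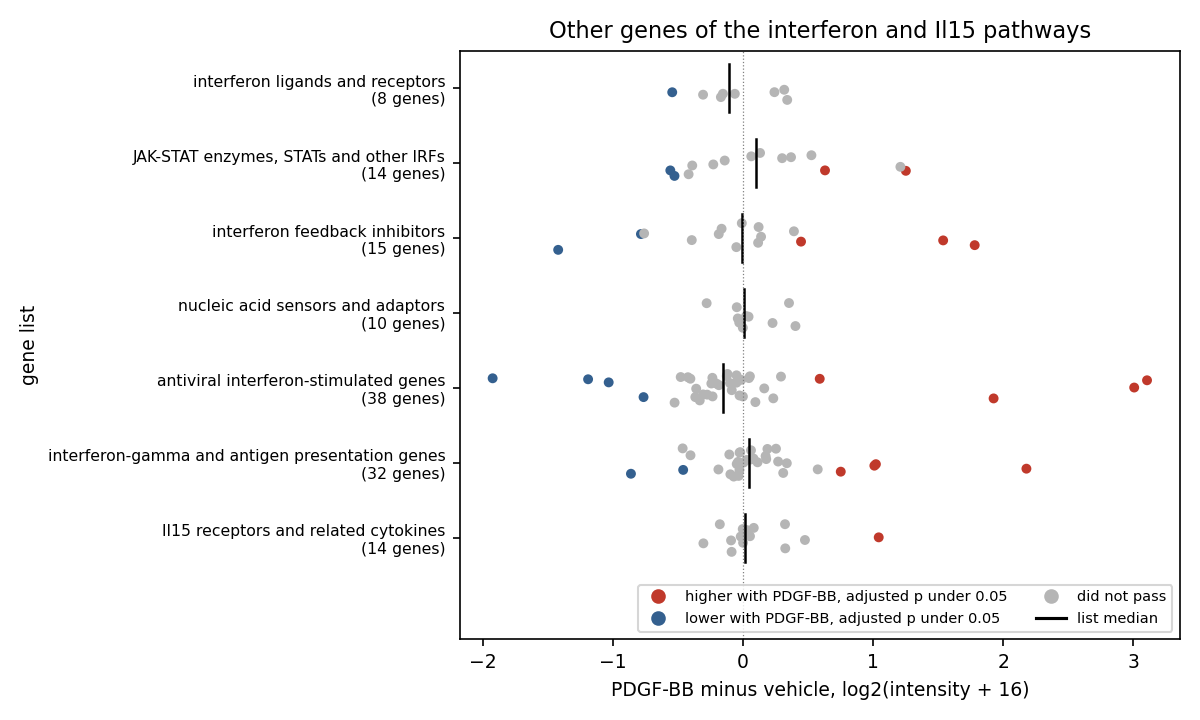
Log2 difference, PDGF-BB minus vehicle on the log2(intensity + 16) scale, of the 131 other pathway genes by list, red where limma called the gene higher with PDGF-BB and blue where it called it lower, grey for genes that did not pass, and a black bar at each list's median. The medians lie between -0.15 and 0.10, and the called genes lie on both sides in 4 of the 7 lists.

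The 3 interferon genes measured, Ifnb1, Ifng and Ifnk, were under the yardstick on every array, and no other interferon gene was analysed here. Ifnb1 had intensities of 9.91 and 1.24 with PDGF-BB, against 7.67 and 7.33 with vehicle, and Ifng 7.31 and 4.39 with PDGF-BB, against 6.20 and 16.7 with vehicle. Of the 8 ligand and receptor genes measured, 1 fell and 7 did not pass (median -0.11). The one that fell was Ifnar1, a chain of the type I receptor, with 345.6 and 299.9 with PDGF-BB, against 489.6 and 463.4 with vehicle, a log2 difference of -0.54 (SE 0.11, limma adjusted p 0.0317) and 2 of its 4 probe sets called. With an offset of 1 the Ifnar1 call was lost (limma adjusted p 0.0618). The partner chain Ifnar2 (0.24, SE 0.09, limma adjusted p 0.120) and the interferon-gamma receptor chain Ifngr2 (0.32, SE 0.11, limma adjusted p 0.109) did not pass, although 1 of the 2 Ifngr2 probe sets was called higher. Under the 13 other settings Ifngr2 passed in 5, with limma adjusted p-values of 0.0297 to 0.0492, and Ifnar2 in 2.

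The list of Janus kinases, STATs and other interferon regulatory factors also held Irf2bp1, Irf2bp2, Irf2bpl and Nmi. Of its 14 measured genes, 2 rose, 2 fell and 10 did not pass, with a median of 0.10. Of the 4 called, only Stat3 is itself a Janus kinase, STAT or interferon regulatory factor. Irf2bp2, a corepressor that binds Irf2, rose by 1.25 (SE 0.09), with 3739 and 3494 with PDGF-BB, against 1521 and 1495 with vehicle. Its relative Irf2bp1 fell by 0.56 (SE 0.09), and Nmi, a protein that binds STATs, fell by 0.53 (SE 0.10). The Nmi call was lost with the replicate number as a block (limma adjusted p 0.0506) and with an offset of 1 (0.0538). Stat3, picked after its value was seen, rose by 0.63 (SE 0.13) in the probe set used, and both of its probe sets were called. These 4 calls had limma adjusted p-values of 0.00293 to 0.0320. Irf3, which starts interferon transcription, was at 1285 and 1108 with PDGF-BB and 1665 and 1534 with vehicle and did not pass (limma adjusted p 0.0696). It too was picked after its value was seen.

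Feedback inhibitors went both ways. Of 15 measured, 3 rose, 2 fell and 10 did not pass, with a median of -0.01. Socs3, which binds and inhibits Janus kinases, had intensities of 171.8 and 149.9 with PDGF-BB, against 34.1 and 36.6 with vehicle, and was at least 2.00-fold higher with vehicle taken at the yardstick. Ptpn1, a phosphatase of Janus kinases, rose by 1.54 (SE 0.10), with 841.3 and 770.9 with PDGF-BB, against 256.8 and 276.7 with vehicle. Pias3, an inhibitor of Stat3, fell by 1.42 (SE 0.11), with 483.4 and 430.9 with PDGF-BB, against 1301 and 1196 with vehicle. Limma adjusted p-values were 0.00195 for Socs3, 0.00239 for Ptpn1 and 0.00332 for Pias3. Chosen after their values were seen, the phosphatase Ptpn2 rose by 0.45 (SE 0.11) and Pias1, of the PIAS family of inhibitors, fell by 0.78 (SE 0.09). Isg15, the substrate that Usp18 removes from proteins, was at 91.4 and 71.4 with PDGF-BB and 96.5 and 88.6 with vehicle (limma adjusted p 0.454).

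None of the 10 sensors and adaptors of nucleic acid recognition passed. The smallest limma p-values in this list belonged to the adaptor Myd88 (0.35, SE 0.10, limma adjusted p 0.0720), the ubiquitin ligase Trim25 (0.40, SE 0.13, limma adjusted p 0.0869) and the Z-nucleic acid sensor Zbp1, which was under the yardstick on all arrays. Myd88 and Trim25 passed under 7 and 6 of the 13 other settings.

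Of 38 antiviral interferon-stimulated genes measured, 4 rose, 4 fell and 30 did not pass, with a median of -0.15. The phospholipid scramblase Plscr1 had intensities of 3374 and 3202 with PDGF-BB, against 388.3 and 401.5 with vehicle, a log2 difference of 3.01 (SE 0.09, limma adjusted p 0.000582). Mnda, of the interferon-inducible HIN-200 family, had 179.0 and 153.0 with PDGF-BB, against 4.84 and 5.35 with vehicle, and was at least 2.07-fold higher with vehicle taken at the yardstick. The exonuclease Isg20, which degrades viral RNA, rose by 1.93 (SE 0.10), with 2270 and 2067 with PDGF-BB, against 570.2 and 546.0 with vehicle.

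The remaining called members of the antiviral list were named after their values were seen. Oas1a, an oligoadenylate synthase, was called higher (limma adjusted p 0.0225) with all 4 values, 43.3 and 48.2 with PDGF-BB and 27.1 and 23.0 with vehicle, under the yardstick. Trim34, of the TRIM family, fell by 1.92 (SE 0.11), with 141.4 and 122.4 with PDGF-BB, against 561.2 and 526.0 with vehicle. The ADP-ribosyltransferase Parp10 fell by 1.19 (SE 0.12), Ifi44 fell by 1.03 (SE 0.10) and Ifi35, a partner of Nmi, fell by 0.76 (SE 0.12). Several genes often used as a sign of type I interferon action did not pass. Ifit1, a relative of Ifit2, was at 69.5 and 78.9 with PDGF-BB and 86.9 and 93.0 with vehicle, and Mx1, a relative of Mx2, at 64.8 and 42.4 with PDGF-BB and 87.8 and 78.0 with vehicle. Rsad2, which encodes viperin, was at 40.9 and 32.4 with PDGF-BB and 58.1 and 50.7 with vehicle. Their limma adjusted p-values were 0.182, 0.118 and 0.0806, and these genes too were picked after their values were seen. Their log2 differences were -0.23, -0.52 and -0.42 in the same order, and the groups did not overlap. Rsad2 was under the yardstick on all arrays and Ifit1 and Mx1 lay near it, so nothing is read from the missed threshold.

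**Figure D4:**
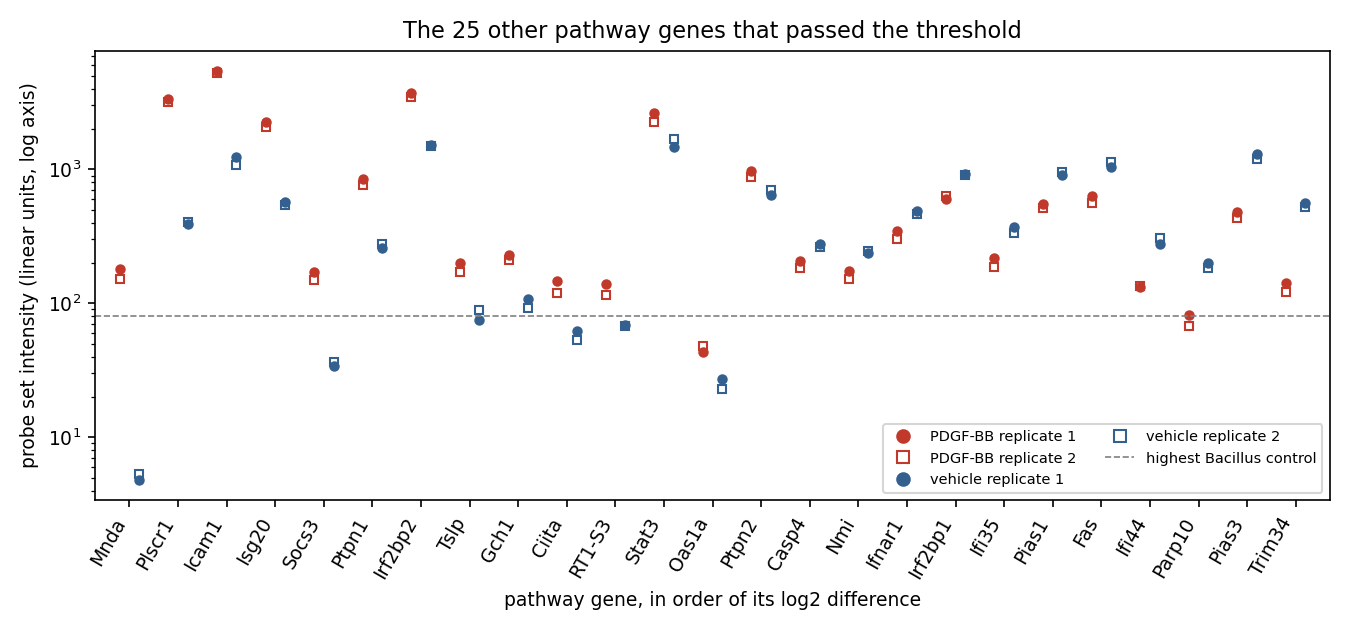
Probe set intensity (linear units, log axis) on each array of the 25 other pathway genes called by limma, in order of their log2 difference from Mnda (3.11) to Trim34 (-1.92), with PDGF-BB in red left of vehicle in blue, replicate 1 filled and replicate 2 open, and the dashed line at the highest Bacillus control, 80.3. Mnda, Socs3, Ciita, RT1-S3 and Oas1a have both vehicle arrays under that line.

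Of 32 interferon-gamma and antigen presentation genes, 4 rose, 2 fell and 26 did not pass, with a median of 0.05. Icam1, an adhesion molecule also induced by NF-kappaB, rose by 2.18 (SE 0.11, limma adjusted p 0.00133), with 5408 and 5220 with PDGF-BB, against 1247 and 1081 with vehicle. Gch1, the first enzyme of tetrahydrobiopterin synthesis, rose by 1.02 (SE 0.12) in the probe set used, and 1 of its 2 probe sets was called. The death receptor gene Fas fell by 0.86 (SE 0.11) in the probe set used, and both of its probe sets were called lower. The one used is of the s type, whose probes can match more than 1 gene. Named after their values were seen, Ciita, the coactivator of class II genes, was at least 1.66-fold higher and the class I gene RT1-S3 at least 1.58-fold higher, both with vehicle taken at the yardstick, and Casp4, an inflammatory caspase, fell by 0.46 (SE 0.10). The RT1-S3 probe set is of the x type, so other class I genes can contribute. Of the 4 RT1-S3 probe sets 3 were called higher. The class I gene RT1-CE5 did not pass in the probe set used, but 2 of its 5 probe sets were called lower. Cxcl10, a chemokine induced by interferon-gamma, was at 117.0 and 121.2 with PDGF-BB and 127.5 and 83.2 with vehicle (limma adjusted p 0.575).

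Among 14 receptors, cytokines and signal carriers (Jak3, Stat5a and Stat5b) related to Il15, 1 rose and 13 did not pass, with a median of 0.02. Il15ra, the alpha chain of the Il15 receptor, was listed but was not among the genes measured. Tslp, a cytokine that signals through a receptor containing the Il7 receptor chain, rose by 1.04 (SE 0.13, limma adjusted p 0.00995), with 200.5 and 170.6 with PDGF-BB, against 74.5 and 88.9 with vehicle. Stat5a, which carries the signal of the Il15 receptor, was at 637.6 and 587.4 with PDGF-BB and 529.0 and 444.6 with vehicle (limma adjusted p 0.137). Il7 was under the yardstick on all arrays (limma adjusted p 0.115). The Il15 receptor chains Il2rb and Il2rg were also under it on all arrays, at 31.7 and 29.2 and at 22.0 and 28.0 with PDGF-BB, and at 26.5 and 29.1 and at 36.4 and 16.6 with vehicle.

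Fewer of the 25 called genes among the 131 passed when 1 array was left out. Such a fit has 1 array in a group and less information on spread, so a lost call does not trace to a given array. Over these 4 fits the log2 difference ranged from -0.60 to -0.52 for Irf2bp1, from -0.64 to -0.45 for Ifnar1 and from 0.94 to 1.15 for Tslp. Calls over all probe sets fell too, as given below. Of the 25, 20 and 17 remained when PDGF-BB replicate 1 and PDGF-BB replicate 2 were left out in turn, and 11 and 10 when vehicle replicate 1 and vehicle replicate 2 were. The 9 called in all 4 of these fits were Plscr1, Mnda, Isg20, Icam1, Socs3, Ptpn1 and Irf2bp2, higher, and Trim34 and Pias3, lower. When vehicle replicate 1 was left out, limma's adjusted p was 0.0731 for Tslp, 0.0715 for Fas, 0.0545 for Parp10, 0.0724 for Pias1, 0.0624 for Ciita, 0.109 for RT1-S3, 0.122 for Ifi35, 0.191 for Ifnar1, 0.140 for Irf2bp1 and 0.154 for Nmi. When vehicle replicate 2 was left out, it was 0.0515 for Tslp, 0.0848 for Fas, 0.0531 for Ifi44, 0.0836 for Pias1, 0.0815 for Ciita, 0.113 for RT1-S3, 0.0893 for Ifi35, 0.148 for Ifnar1, 0.128 for Irf2bp1, 0.180 for Nmi and 0.0620 for Gch1. Without PDGF-BB replicate 2 it was 0.0632 for Ifi35, 0.0808 for Ifnar1, 0.0508 for Irf2bp1 and 0.0766 for Nmi, and Irf2bp1 also missed without PDGF-BB replicate 1 (0.0517). Stat3, Oas1a, Ptpn2 and Casp4 missed the threshold in all 4 fits, with values of 0.0543 to 0.259.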

How the data were processed

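Biotin-labelled cRNA of 2 PDGF-BB and 2 vehicle samples was hybridised, per the labels' protocols, to Affymetrix arrays. The deposited table holds linear intensities per probe set, as judged from the values. What software, background correction and scaling made them is not given in the sources used here. Of 23764 rows, 57 control probe sets were left out. In a platform annotation of 2016, 17279 probe sets carry 1 symbol, 373 carry several and 6055 carry none. Current gene identifiers were found for 17223 of those with 1 symbol, with 0 symbols changed. Values were tested as log2(intensity + 16) in R 4.3.3 with limma 3.58.1 (lmFit, eBayes). The p-values are two-sided, adjusted by Benjamini-Hochberg over 23707 probe sets, with a threshold of 0.05. The offset understates changes of dim genes. The procedure was tested on simulated data.

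The members, lists and alternatives were chosen with earlier results of these data known. Named genes were all 9 members, the 3 lowest p-values per list, and the 2 most similar profiles for 5 members. Others are marked in the text as picked after their values were seen. Alternatives were other offsets, scalings, a filter on dim probe sets, a variance trend, a replicate block, each array left out and, for the lists, probe sets averaged per gene. The number of arrays limits the precision, and with 2 against 2 an exact permutation test cannot reach the threshold.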

Additional observations from a re-analysis of the deposited data

How the results depend on the processing

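With all arrays, 5779 probe sets and 25 of the 131 other pathway genes were called. Leaving out 1 array gave 1272 to 4223 probe sets and 10 to 23 pathway genes, with 3017 and 17 without PDGF-BB replicate 2, 1272 and 12 without vehicle replicate 1, and 1383 and 10 without vehicle replicate 2; a lone array in a group is assumed to vary like the other group. The pathway count was 38 with an offset of 64 and 42 with dim probe sets left out, and under the other settings run both counts stayed within 1.5 times of those with all arrays. The replicate numbers were not taken as pairs. Deviations of replicate 1 from its group mean correlated at -0.098 between the groups over all probe sets. With 2 arrays per group replicate 2 mirrors replicate 1, so this value cannot decide whether the arrays were paired. With the replicate block 4954 probe sets and 25 pathway genes were called, the genes 15 higher and 10 lower, with Nmi lost. Of the 13 member probe sets, 12 kept their sign under every setting run and Irf7 did not. Where the groups do not overlap, only the other scalings could have turned a sign. With array medians subtracted the median difference of all probe sets was 0.06, against -0.01 as deposited, and 3831 were called higher and 3126 lower, against 2712 and 3067. Values under 80.3 have no reliable order, which limits the folds of Usp18, Oasl, Il15 and Mx2.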

Other observations

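These values are of measured genes within 2 places of a member in the GRCr8 gene order, picked after they were seen. Of 36 such places 24 held a measured gene, 12 with a positive and 12 with a negative log2 difference. Ifit3, next to Ifit2, was under the yardstick of 80.3 in both groups, with means of 29.1 with PDGF-BB and 23.0 with vehicle. On its other side Lipa had a log2 difference of -0.71 (SE 0.09). Of those near Il15, Inpp4b had a log2 difference of 0.15 (SE 0.12) and Usp38 one of 0.65 (SE 0.11). Rad50, close to Irf1, had a log2 difference of -0.87 (SE 0.15), and Slc22a5, next to Irf1, one of -0.13 (SE 0.10). Il5, next to Irf1 on the side of Rad50, had one of 0.44 (SE 0.22), with the means of both groups under the yardstick. Pan2, close to Stat2, had one of -0.98 (SE 0.11), and Il23a, next to Stat2, one of 0.12 (SE 0.14). Rassf7, close to Irf7, had one of -0.67 (SE 0.11). The other measured genes near Irf7 had log2 differences of 0.06 for Phrf1, 0.08 for Cdhr5 and 0.60 for Sct (SE 0.11, 0.23 and 0.18), Cdhr5 and Sct being under the yardstick. Ripk4, near Mx2, had one of 1.19 (SE 0.10) with the means of both groups under the yardstick.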
